A study of Homo sapiens with 4 samples.

Results

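The genes of 10 proteins that remove phosphates from the C-terminal domain (CTD) of RNA polymerase II (Pol II), or that bind it, were examined in human cells whose Pol II carried a T4A or a wild-type CTD. The 10 genes were taken from a fixed list of symbols and comprise 3 CTD phosphatases (CTDP1, SSU72 and RPAP2), 5 proteins with a CTD interaction domain (RPRD1A, RPRD1B, RPRD2, SCAF4 and SCAF8) and 2 SR-related proteins associated with the CTD (SCAF1 and SCAF11). They were found among the 62700 gene identifiers of each count table, and all 10 were among the 18139 genes that passed the filter on low counts. No measured value of these cells entered the list's rule, although earlier results of these data were known when it was drawn up.

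In the T4A group, HEK293T cells, a line derived from human embryonic kidney, had been transiently transfected with RPB1, the largest subunit of Pol II, in which the threonine at position 4 of the CTD repeats was replaced by alanine. In the WT group the transfected RPB1 had a wild-type CTD. In both groups RPB1 was resistant to α-amanitin, a toxin that removes the endogenous subunit, and the toxin was applied at 2.5 µg/ml for 48 hours, starting 1 day after transfection. Poly(A) RNA was sequenced from 2 libraries per group. The study asked how the threonine bears on gene expression.

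The CTD is a tail of repeated heptads that is phosphorylated and dephosphorylated as Pol II moves along a gene. Phosphatases reset these marks, so that the polymerase can be released and used again, and proteins with a CTD interaction domain read them and bring elongation, RNA processing and termination factors to the polymerase. The levels below are those of the mRNAs of these proteins, and they say nothing of the proteins themselves or of their binding to the CTD.

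Depth was 23465029 and 19257217 counts in T4A libraries, against 33063535 and 24695291 in WT libraries. POLR2A, the gene of RPB1, had 5378 and 5477 CPM (counts per 1000000, with library sizes scaled by TMM) in T4A cells, against 3772 and 2764 CPM in WT cells. Its log2 fold change, with the SE, was 0.73 ± 0.077, and the edgeR quasi-likelihood test gave an adjusted p of 7.23e-07. Fragments of the transfected and the endogenous gene cannot be told apart in these counts, so the gene does not check the mutation itself. Of 8 markers of the HEK293 line, 7 passed the filter on low counts, and LHX1 had only 2 counts in all. In T4A cells 2 were called higher, KRT8 and VIM, and 2 lower, CDH2 and NEFL. Over all tested genes, 10.7% were called higher and 13.0% lower. The leukocyte and muscle markers PTPRC, CD3E, CD68 and DES held between 0 and 7 counts per library. PECAM1, also listed as a marker of other cell types, was not matched by symbol. The other 3 listed markers of other cell types passed the filter and none was called. COL1A1, a fibroblast collagen, had 549 to 624 counts in T4A libraries and 848 to 1039 in WT libraries. GFAP had 26 to 36 and 47 to 61, and ALB had 10 to 36 and 20 to 28. Genes with an adjusted p below 0.05 are termed called. Since 2 against 2 libraries allow no exact permutation p below 0.333, each test rests on a spread that genes share. The study calls its RNA duplicates biological replicates, but separate cultures are not stated in the labels. The p-values therefore reflect the variation among these 4 libraries, part or all of which may be technical.

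Of the 10 genes, SSU72 was higher in T4A cells, and RPRD1A, RPAP2 and SCAF11 were lower. The 3 lower genes stood beside 13.0% of all tested genes called lower, and the 1 higher gene beside 10.7% called higher. The 6 other genes were not called. Log2 fold changes ran between −0.56 for SCAF8 and 0.33 for CTDP1, with 5 above 0 and 5 below 0, and their median was −0.097, against −0.0066 over all tested genes. Both T4A libraries lay below both WT libraries for 5 of the genes, as for 30.5% of all tested genes, and above both for 2 of them, as for 28.5% of all tested genes. In bulk RNA, fewer cells that express a gene and less of its RNA per cell cannot be told apart.

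Promoters are shown for the 4 called genes and for RPRD1B, the closest relative of RPRD1A, since one of the pair was called and the other was not. Each sequence runs from 250 bases before to 50 bases after the start site, is taken from RefSeq on GRCh38 and is read 5′ to 3′ on the strand of the gene. Capitals mark matches, on either strand, to 5 motifs. The palindrome of the cAMP response element is TGACGTCA, and the core bound by the zinc finger factor YY1 is AAGATGGC. The GC box, a site of SP1-type factors, was searched as GGGCGG. The box bound by the trimeric factor NF-Y was searched as CCAAT. The TATA box was searched as TATAAA. RPRD1A lies on the minus strand at chr18:36067510-36067809, RPRD1B on the plus strand at chr20:38033496-38033795, RPAP2 on the plus strand at chr1:92298809-92299108, SCAF11 on the minus strand at chr12:45990525-45990824 and SSU72 on the minus strand at chr1:1574814-1575113.
RPRD1A: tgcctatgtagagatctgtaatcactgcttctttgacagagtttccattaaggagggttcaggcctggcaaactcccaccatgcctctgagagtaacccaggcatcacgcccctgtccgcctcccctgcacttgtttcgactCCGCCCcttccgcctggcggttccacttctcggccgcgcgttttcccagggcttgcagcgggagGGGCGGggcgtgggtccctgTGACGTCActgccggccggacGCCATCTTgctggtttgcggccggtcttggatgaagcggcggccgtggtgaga
RPRD1B: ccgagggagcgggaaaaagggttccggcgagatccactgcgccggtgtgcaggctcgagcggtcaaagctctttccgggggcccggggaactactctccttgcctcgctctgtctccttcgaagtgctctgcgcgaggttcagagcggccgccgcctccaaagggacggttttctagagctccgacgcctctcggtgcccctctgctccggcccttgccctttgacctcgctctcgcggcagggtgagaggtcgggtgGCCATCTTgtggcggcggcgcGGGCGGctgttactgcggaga
RPAP2: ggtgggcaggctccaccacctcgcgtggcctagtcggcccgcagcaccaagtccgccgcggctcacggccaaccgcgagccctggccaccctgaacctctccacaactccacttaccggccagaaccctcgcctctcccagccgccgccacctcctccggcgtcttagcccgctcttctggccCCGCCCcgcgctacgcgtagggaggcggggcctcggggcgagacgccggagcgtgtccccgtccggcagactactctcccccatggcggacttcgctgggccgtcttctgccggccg
SCAF11: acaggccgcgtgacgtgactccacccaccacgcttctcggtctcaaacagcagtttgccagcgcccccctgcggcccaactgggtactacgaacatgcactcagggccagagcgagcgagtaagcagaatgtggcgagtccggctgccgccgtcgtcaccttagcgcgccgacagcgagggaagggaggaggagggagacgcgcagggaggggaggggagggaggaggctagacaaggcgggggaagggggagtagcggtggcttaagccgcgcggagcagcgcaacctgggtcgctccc
SSU72: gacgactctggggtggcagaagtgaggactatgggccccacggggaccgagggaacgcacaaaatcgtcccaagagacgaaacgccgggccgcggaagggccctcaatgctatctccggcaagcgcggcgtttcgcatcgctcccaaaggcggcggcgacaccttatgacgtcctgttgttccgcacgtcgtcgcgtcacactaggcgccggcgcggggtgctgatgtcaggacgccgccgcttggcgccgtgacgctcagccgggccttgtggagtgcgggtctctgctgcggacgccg
The RPRD1A window held 1 cAMP response element palindrome, which was present in 1.85% of 35116 RefSeq promoters of the same length, 1 YY1 motif, present in 2.89% of them, and 2 GC boxes, a motif present in 45% of them. RPRD1B also held a YY1 motif, close to its start site, and 1 GC box, but no match to the palindrome. Among members not shown and not called, a CTDP1 window held the palindrome at −21 and the SCAF1 window held a YY1 motif. The palindrome therefore does not set called genes apart from the others. RPAP2 held 1 GC box, and the windows of SCAF11 and SSU72 held no match to any of the 5 motifs. The SCAF11 window lies inside the span of its gene, which ends at 45992059. It surrounds an internal start site, and the sequence around the outer end of that gene was not searched. CCAAT was present in 34.6% of all promoters and TATAAA in 11.5%, and neither was found in these windows. A match is a run of letters in the window and does not show that a factor was bound there. None of the 5 motifs was found in all 3 windows of the genes called lower.

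RPRD1A (ENSG00000141425.18, chromosome 18, 35989824 to 36067559, GRCh38) was the most abundant of the 10 mRNAs and the one that fell with the smallest adjusted p. Its protein binds the phosphorylated CTD through its CTD interaction domain, forms dimers and associates with RPAP2. RPRD1A had 6286 and 5009 counts in T4A cells, or 277 and 266 CPM, against 12542 and 9167 counts in WT cells, or 374 and 358 CPM. Both T4A libraries were low, and the groups were separated by far more than the replicates of either group. The log2 fold change was −0.43 ± 0.043 (95% interval −0.52 to −0.34, adjusted p = 3.75e-07), a level in T4A cells of 0.742 times that in WT cells. RPRD1A made up 56.4% and 54.2% of the counts of the 10 genes in T4A libraries, against 63.7% and 62.7% in WT libraries.

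RPRD1B (ENSG00000101413.12, chromosome 20, 38033746 to 38092364) encodes the closest relative of RPRD1A and was far less abundant. It had 242 and 184 counts in T4A cells, or 10.7 and 9.78 CPM, against 384 and 311 counts in WT cells, or 11.4 and 12.1 CPM. The T4A libraries were the lower ones and did not overlap with the WT libraries, but the log2 fold change of −0.20 ± 0.15 was not called (95% interval −0.52 to 0.11, adjusted p = 0.391). This interval includes the log2 fold change of RPRD1A, and the difference between the changes of both genes was not tested. RPRD1B shares 396 exonic bases with TGM2 on the opposite strand, which held 201 and 137 counts in T4A cells and 329 and 213 counts in WT cells. Within a library, RPRD1A had 26.0 and 27.2 times the counts of RPRD1B in T4A cells, against 32.7 and 29.5 times in WT cells, and the counting intervals of the groups overlapped.

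RPRD2 (ENSG00000163125.16, chromosome 1, 150364147 to 150476566), a larger protein with the same kind of domain, had 159 and 119 counts in T4A cells, or 7.01 and 6.33 CPM, against 238 and 157 counts in WT cells, or 7.10 and 6.13 CPM. The groups overlapped, and the log2 fold change was 0.011 ± 0.20 (95% interval −0.41 to 0.43, adjusted p = 0.982). The interval is wide enough to hold a change as large as that of SSU72 in either direction. Summed over the 3 RPRD genes, the level was 295 and 282 CPM in T4A cells, against 392 and 376 CPM in WT cells, a difference that was nearly all RPRD1A.

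**Figure D1:**
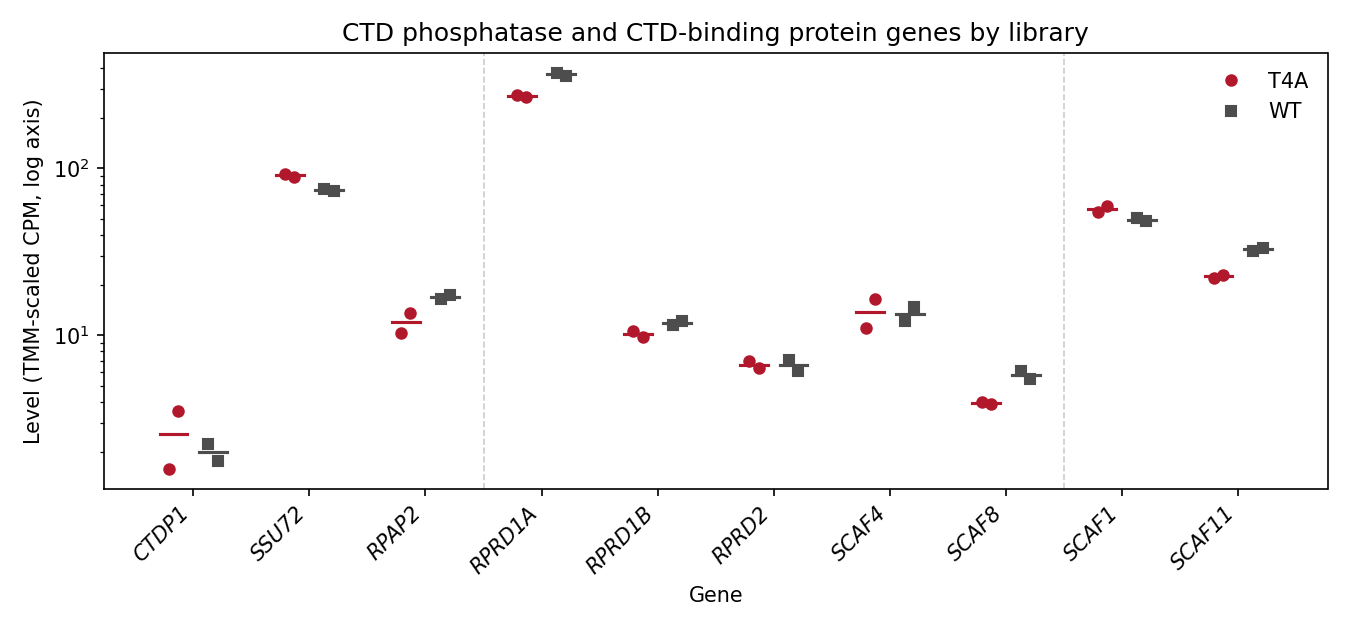
Levels of the 10 genes in each library, as TMM-scaled CPM on a log axis, with T4A libraries as red circles left of WT libraries as grey squares and a bar at each group mean. Dashed lines divide the phosphatases, the CTD interaction domain genes and the SR-related genes. RPRD1A stands highest, at 277 and 266 CPM in T4A cells and 374 and 358 CPM in WT cells, and the 2 CTDP1 values of T4A cells lie on both sides of the WT values.

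The plot of levels by library shows the spread behind each comparison. Relative to the level, the T4A libraries lay farthest apart for CTDP1, followed by SCAF4 and RPAP2. Those of SCAF8, also a low gene, lay close together, at 3.97 and 3.88 CPM. To compare genes with each other, counts were also divided by the exonic length (RPKM). This length counts every base in any annotated exon of a gene, so it can exceed that of the mRNA expressed here. RPRD1A stood first, at 32.2 RPKM in T4A cells and 43.3 RPKM in WT cells. SSU72 and SCAF1 followed and did not differ from each other beyond their spread in T4A cells, where they had 13.2 ± 0.352 and 12.8 ± 0.662 RPKM (SD, n = 2), or in WT cells, where they had 10.7 ± 0.106 and 11.0 ± 0.314 RPKM. SCAF4, RPRD1B and SCAF11 formed the next group, with means between 1.61 and 2.31 RPKM in T4A cells and between 2.21 and 2.33 RPKM in WT cells. SCAF11 was the lowest of these in T4A cells (1.61 ± 0.0426 RPKM) and the highest in WT cells (2.33 ± 0.0590 RPKM), where its spread overlapped with those of SCAF4 and RPRD1B. SCAF8, RPRD2 and RPAP2 lay at 0.723, 0.721 and 0.702 RPKM in T4A cells, within their spread, and at 1.07, 0.716 and 0.992 RPKM in WT cells. CTDP1 was the lowest of the 10, at 0.411 RPKM in T4A cells and 0.322 RPKM in WT cells.

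SSU72 (ENSG00000160075.12, chromosome 1, 1541673 to 1574863) was the one phosphatase gene, and the one gene of the 10, that was called higher. Its protein removes phosphate from serine 5 of the CTD repeats and works with the scaffold symplekin in the 3′-end processing machinery. SSU72 had 2105 and 1680 counts in T4A cells, or 92.8 and 89.3 CPM, against 2507 and 1888 counts in WT cells, or 74.7 and 73.7 CPM. Both T4A libraries were high, and the libraries of each group lay close together. The log2 fold change was 0.29 ± 0.065 (95% interval 0.16 to 0.43, adjusted p = 0.00204), a level 1.23 times that in WT cells. The annotated copies of SSU72 held between 0 and 2 counts each per library, and a noncoding gene on the opposite strand within its span shared no exonic base with it.

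RPAP2 (ENSG00000122484.9, chromosome 1, 92299059 to 92402056) encodes a phosphatase that acts on serine 5 and takes part in the assembly and nuclear import of Pol II. It had 233 and 257 counts in T4A cells, or 10.3 and 13.7 CPM, against 551 and 446 counts in WT cells, or 16.4 and 17.4 CPM. Both T4A libraries were below both WT libraries, and the T4A libraries differed from each other more than the WT libraries did. RPAP2 fell by 0.50 on the log2 scale (SE 0.15, 95% interval −0.81 to −0.20, adjusted p = 0.0150). The call rests on single libraries, since the log2 fold change was −0.31 without T4A replicate 1 (adjusted p = 0.173), −0.47 without WT replicate 2 (adjusted p = 0.0953) and −0.72 without T4A replicate 2, and DESeq2 did not call it (adjusted p = 0.0587).

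CTDP1 (ENSG00000060069.18, chromosome 18, 79676768 to 79756625) encodes FCP1, a phosphatase best known for acting on serine 2. It had 36 and 66 counts in T4A cells, or 1.59 and 3.51 CPM, against 75 and 45 counts in WT cells, or 2.24 and 1.76 CPM. The T4A libraries held both the lowest and the highest value, and the 95% counting interval of T4A replicate 2, 2.71 to 4.46 CPM, did not overlap with that of T4A replicate 1. The log2 fold change was 0.33 ± 0.39 (95% interval −0.49 to 1.15, adjusted p = 0.622), and it lay at −0.34 without T4A replicate 2. Neither a rise nor a fall was detectable at this depth and with this spread between the T4A libraries. Counting intervals cover counting error only. Summed, the 3 phosphatase genes had 105 and 106 CPM in T4A cells, against 93.4 and 92.9 CPM in WT cells, and SSU72 made up most of each sum.

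**Figure D2:**
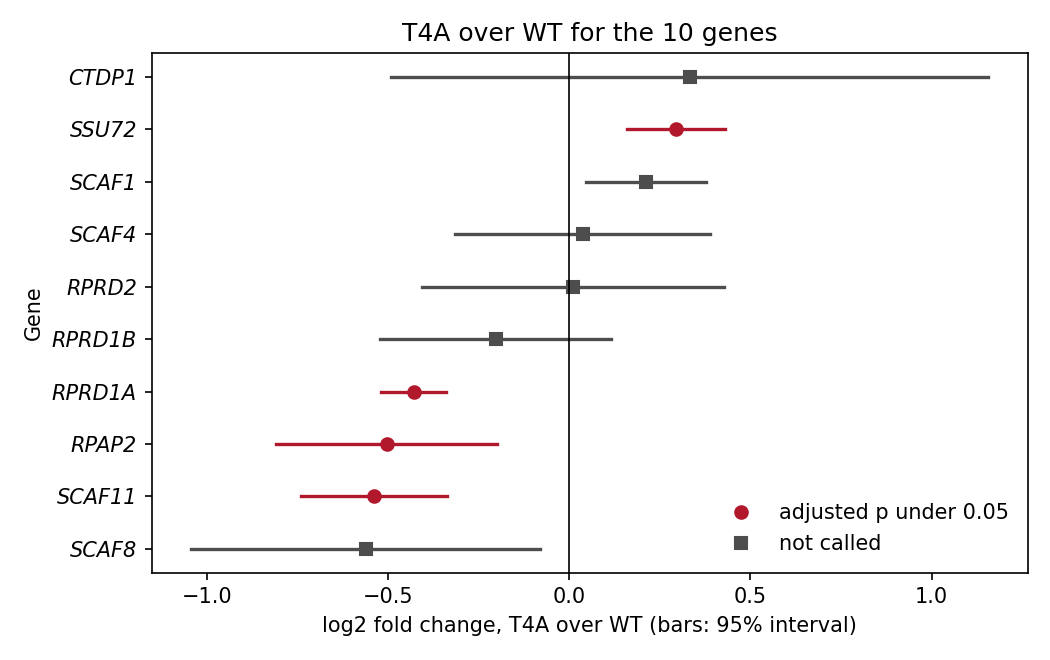
Log2 fold change of each of the 10 genes, T4A over WT, from the edgeR fit, with 95% intervals as bars. Red circles are genes with an adjusted p under 0.05 and grey squares are the others. SSU72 lies right of 0 at 0.29, RPRD1A, RPAP2 and SCAF11 lie left of it between −0.54 and −0.43, and SCAF8 at −0.56 has a wider interval and was not called.

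SCAF8 (ENSG00000213079.10, chromosome 6, 154733378 to 154834244) had the most negative log2 fold change of the 10, as the plot of fold changes shows, but was not called. With SCAF4 it is known to prevent premature cleavage and polyadenylation within genes. SCAF8 had 90 and 73 counts in T4A cells, or 3.97 and 3.88 CPM, against 205 and 140 counts in WT cells, or 6.11 and 5.47 CPM. Both T4A libraries were low and the groups did not overlap. The log2 fold change of −0.56 ± 0.23 had a 95% interval of −1.04 to −0.081 and an adjusted p of 0.0869. Its exons share 713 bases on the same strand with TIAM2, which held 39 and 29 counts in T4A cells and 65 and 28 counts in WT cells, and the sources used here do not give the counting rule for fragments that fit both genes.

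SCAF4 (ENSG00000156304.15, chromosome 21, 31671000 to 31732118) had 252 and 311 counts in T4A cells, or 11.1 and 16.5 CPM, against 409 and 376 counts in WT cells, or 12.2 and 14.7 CPM. The T4A libraries again held both the lowest and the highest value. The log2 fold change was 0.037 ± 0.17 (95% interval −0.31 to 0.39, adjusted p = 0.916), and its sign turned to −0.27 without T4A replicate 2. Within a library, SCAF4 had 2.80 and 4.26 times the counts of SCAF8 in T4A cells, against 1.995 and 2.69 times in WT cells. Both ratios in T4A cells were above both in WT cells, but the counting interval of WT replicate 2 (2.21 to 3.28) overlapped with that of T4A replicate 1. The 5 genes with a CTD interaction domain together had 1 called lower, RPRD1A, and 4 not called, beside 13.0% of all tested genes called lower. Their median log2 fold change was −0.20, against −0.0066 over all tested genes, and with 5 genes the count cannot be told from the share over all genes.

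The SR-related genes SCAF11 and SCAF1, whose proteins carry stretches rich in arginine and serine like those of splicing factors, lay on opposite sides of 0. SCAF11 (ENSG00000139218.18, chromosome 12, 45919131 to 45992059), known to take part in spliceosome assembly, had 502 and 432 counts in T4A cells, or 22.1 and 23.0 CPM, against 1079 and 854 counts in WT cells, or 32.2 and 33.3 CPM. Both T4A libraries were low, and replicates of a group lay close together. SCAF11 fell by 0.54 on the log2 scale (SE 0.10, 95% interval −0.74 to −0.34, adjusted p = 0.000310), to 0.688 times its level in WT cells. A noncoding gene on the opposite strand shares 236 exonic bases with it and held 51 and 59 counts in T4A cells and 70 and 101 counts in WT cells, and the sources used here give no strand setting for the counting.

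SCAF1 (ENSG00000126461.15, chromosome 19, 49640465 to 49658642) had 1248 and 1113 counts in T4A cells, or 55.0 and 59.2 CPM, against 1685 and 1236 counts in WT cells, or 50.2 and 48.3 CPM. Both T4A libraries were above both WT libraries. The log2 fold change of 0.21 ± 0.079 was just short of the threshold (95% interval 0.046 to 0.38, adjusted p = 0.0600), and it was called in 4 of 13 alternatives, among them the fit without T4A replicate 1 (adjusted p = 0.0249). Within a library, the ratio of SCAF11 to SCAF1 counts was 0.402 and 0.388 in T4A cells, against 0.640 and 0.691 in WT cells. This ratio does not depend on how libraries are scaled. It does carry any change linked to exonic length, which is 14035 bases for SCAF11 and 4464 for SCAF1. With the trend on length described below removed, the log2 fold changes were −0.26 for SCAF11 and 0.21 for SCAF1. The counting intervals, 0.362 to 0.447 and 0.347 to 0.434 in T4A cells and 0.593 to 0.692 and 0.632 to 0.755 in WT cells, did not overlap between groups. The sum of both genes was 77.1 and 82.1 CPM in T4A cells, against 82.4 and 81.6 CPM in WT cells, and the groups overlapped.

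**Figure D3:**
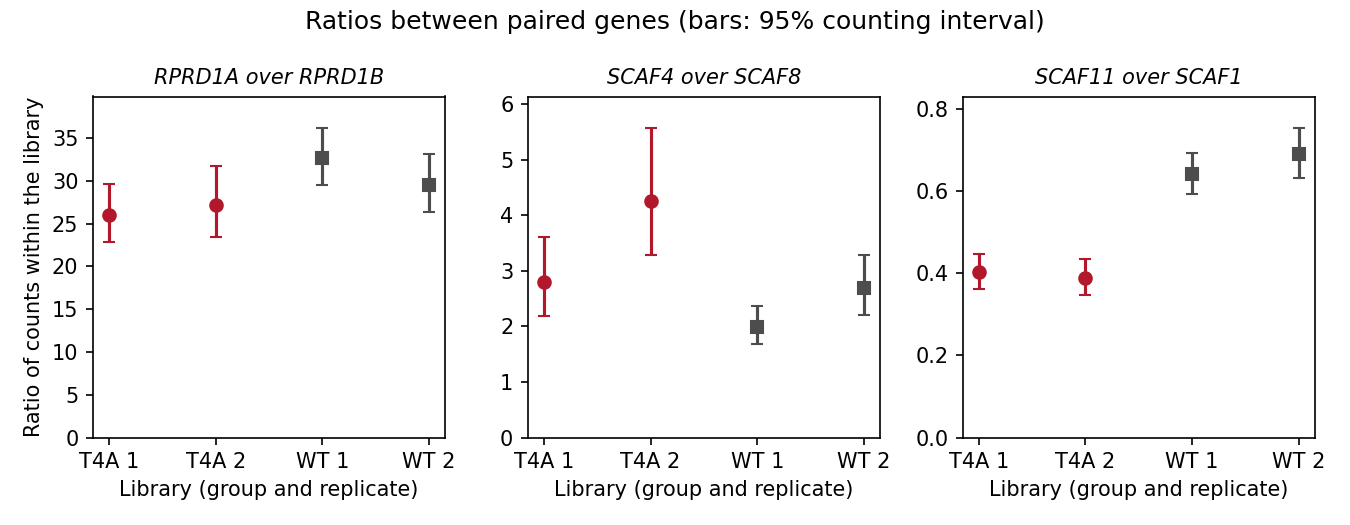
Ratio of the counts of related genes within each library, on linear axes from 0, with T4A libraries (red circles) left of WT libraries (grey squares) and bars for the 95% counting interval. SCAF11 over SCAF1 separates the groups, at 0.402 and 0.388 in T4A cells and 0.640 and 0.691 in WT cells, while intervals overlap between groups for RPRD1A over RPRD1B and for SCAF4 over SCAF8.

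As the plot of ratios shows, the balance between the SR-related genes was the one of the 3 pairs plotted whose counting intervals were apart between groups in every library. The ratio of RPRD2 to RPRD1B counts, which is not plotted, was 0.657 and 0.647 in T4A cells, against 0.620 and 0.505 in WT cells, and its intervals overlapped between groups. Over all 10 genes the summed level was 491 CPM in both T4A libraries, against 587 and 571 CPM in WT libraries. Without RPRD1A, the 9 other genes summed to 214 and 225 CPM in T4A cells, against 213 CPM in both WT libraries. The difference in the summed level of the 10 genes was thus that of RPRD1A.

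Fold changes moved with exonic length across all genes, and the called members were among the long ones. The 18047 tested genes with a known length were divided into 5 length classes of nearly equal size, and from the shortest class to the longest the median log2 fold change was 0.24, 0.14, 0.012, −0.12 and −0.26. RPAP2, RPRD1A, SCAF11 and RPRD2 were in the longest class, of at least 8261 bases, CTDP1, SSU72 and SCAF4 in the next longest, and RPRD1B, SCAF8 and SCAF1 in the middle class. The 3 genes called lower were therefore all in the longest class, and all lay below its median, whereas SSU72, at 6919 bases, rose in a class whose median was below 0. With the length trend removed from the fit, RPRD1A remained called at −0.24 (adjusted p = 0.000929) and SSU72 at 0.43, while RPAP2 lay at −0.20 (adjusted p = 0.412) and SCAF11 at −0.26 (adjusted p = 0.0766).

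**Figure D4:**
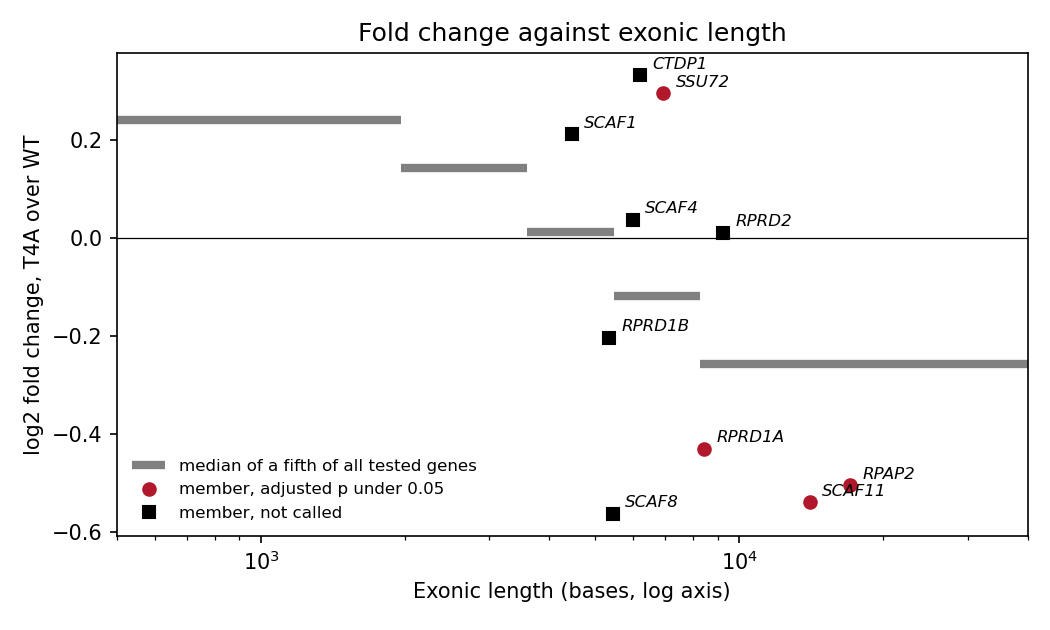
Log2 fold change, T4A over WT, against exonic length in bases on a log axis. Grey bars are the medians of 5 classes of all tested genes by length, red circles are called members and black squares the other members. RPRD1A, RPAP2 and SCAF11 lie below the bar of the longest class at −0.26, and SSU72 lies above the bar of its class at −0.12.

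The plot against length places RPAP2, of 17048 annotated exonic bases, and SCAF11, of 14035, farthest to the right. These are the genes whose calls were lost without the trend. Across all 13 alternatives, SSU72 and RPRD1A were called in each, with log2 fold changes of 0.22 to 0.43 for SSU72 and −0.51 to −0.24 for RPRD1A. SCAF11 was called in 12, RPAP2 in 9, SCAF1 in 4 and SCAF8 in 1, the fit on library totals (adjusted p = 0.0496). CTDP1, RPRD1B, RPRD2 and SCAF4 were called in none.

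**Figure D5:**
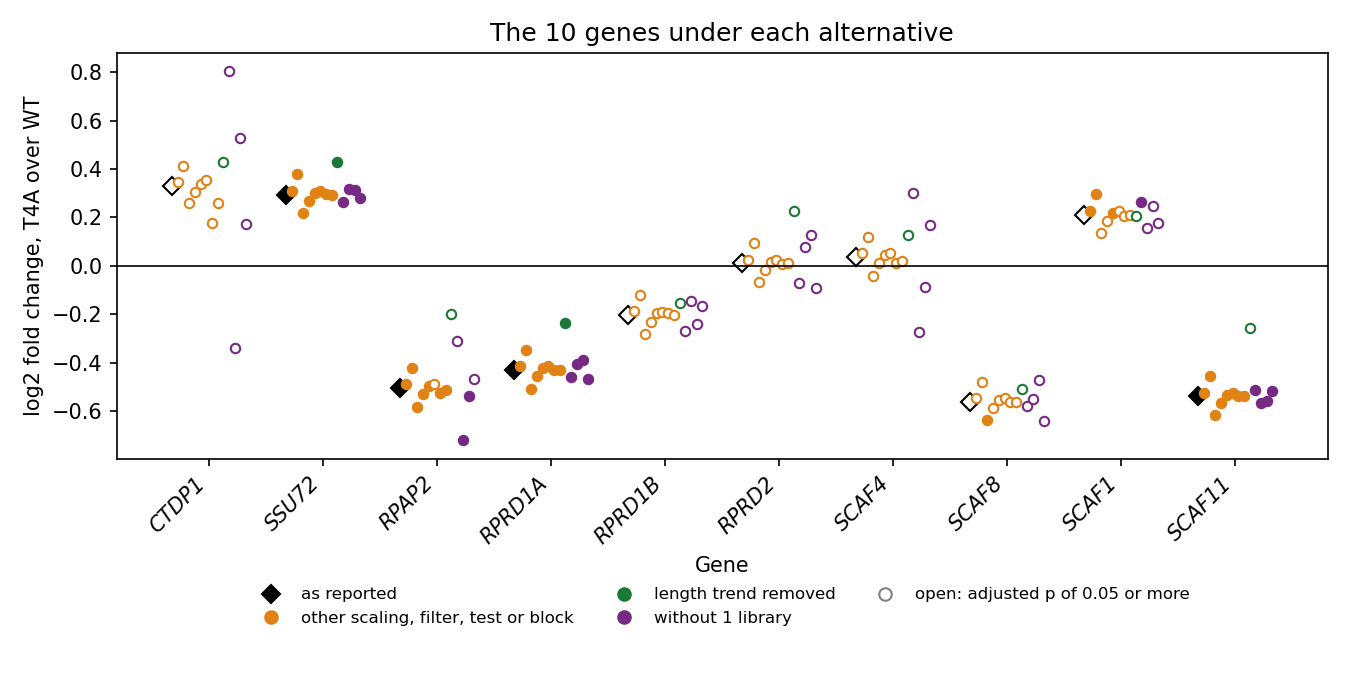
Log2 fold change of each member, T4A over WT, as reported (black diamonds) and under each alternative, with other scalings, filters, tests or the block in orange, the length trend removed in green and 1 library left out in purple. Filled symbols have an adjusted p under 0.05. All symbols of SSU72 and RPRD1A are filled, and those of CTDP1 spread between −0.34 and 0.80.

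The plot of alternatives shows that the spread of CTDP1 and SCAF4 comes with leaving out single libraries, whereas RPRD1B stayed below 0 and SCAF1 above 0 in every alternative run. Genes of other CTD readers were set beside the members. Of 9 tested, 1 was called higher and 5 lower, beside 10.7% and 13.0% of all tested genes, with a median log2 fold change of −0.36, against −0.0066 over all tested genes. U2SURP, a splicing-associated protein with a CTD interaction domain, fell by 0.26 on the log2 scale (adjusted p = 0.0216), a call that was lost with upper quartile scaling, DESeq2, the length trend removed and without WT replicate 1, where the adjusted p lay at 0.122, 0.0707, 0.948 and 0.254. PHRF1, also among the genes called lower, had 6 and 3 counts in T4A cells, against 46 and 57 counts in WT cells. It passed the filter on low counts only through its WT libraries, and its call was lost without WT replicate 2 (adjusted p = 0.0532). PCF11 and RNGTT were also called lower, CHERP lay at −0.025 (adjusted p = 0.916), and SETD2 and RECQL5 were not called.

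Other phosphatases and subunits linked to the CTD numbered 15, of which 14 were tested. Of these, 2 were called higher and 3 lower, beside 10.7% and 13.0% of all tested genes, and the median log2 fold change was −0.15, against −0.0066 over all tested genes. PPP1CA, a catalytic subunit of protein phosphatase 1, rose by 0.33 on the log2 scale (adjusted p = 6.60e-05), and PPP2R1A, the scaffold subunit of protein phosphatase 2A, rose by 0.20 (adjusted p = 9.15e-05). INTS8, the Integrator subunit that contacts protein phosphatase 2A, fell by 0.48 (adjusted p = 0.00102). CTDSPL2, a small CTD phosphatase relative, fell by 0.45 (adjusted p = 0.00464), a call that was lost with the length trend removed (adjusted p = 0.167) and without WT replicate 1 (adjusted p = 0.0602). The third lower gene was PPP1CC.

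Among 8 partners of the member phosphatases, 1 was called higher and 2 lower, beside 10.7% and 13.0% of all tested genes, and the median log2 fold change was 0.13, against −0.0066 over all tested genes. SYMPK, the gene of symplekin, had 103 and 92.3 CPM in T4A cells, against 87.0 and 78.4 CPM in WT cells. Its rise of 0.24 on the log2 scale (adjusted p = 0.0188) went the same way as that of SSU72, but the call was lost with library totals (adjusted p = 0.110), without T4A replicate 1 (0.143) and without WT replicate 2 (0.234). RPAP1 and RPAP3, which act with RPAP2 in Pol II assembly, fell by 0.29 and 0.34 (adjusted p = 0.0122 and 0.0468). The call of RPAP1 was lost with upper quartile scaling (adjusted p = 0.0760), the length trend removed (0.250) and without WT replicate 1 (0.118), and that of RPAP3 was lost in most alternatives, with an adjusted p of 0.179 without T4A replicate 2, 0.200 without WT replicate 1 and 0.236 without WT replicate 2, where its log2 fold change lay at −0.26, −0.35 and −0.33. GPN3, a GTPase of Pol II import, lay at 0.14 (adjusted p = 0.132), and was called higher with upper quartile scaling (0.23, adjusted p = 0.0161).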

How the data were processed

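Poly(A) RNA of HEK293T cells was sequenced from 2 T4A and 2 WT libraries. The submitters' processing notes list Trimmomatic 0.38, HISAT2 2.2.1 and featureCounts 2.0.1, and the study's methods name GRCh38 and alignment without strand. For each library the authors deposited counts of fragments per gene, neither normalized nor pooled. The sources used here do not give the rule for fragments that fit several genes. Symbols and exonic lengths came from GENCODE, and coordinates and promoters from RefSeq on GRCh38.

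The T4A to WT comparison used edgeR 4.0.16 under R 4.3.3, with filterByExpr, TMM and the quasi-likelihood F test (glmQLFit, glmQLFTest). P-values were adjusted by the Benjamini-Hochberg method across the 18139 genes that passed the filter, and the procedure was tested on simulated data. SEs were derived from each log2 fold change and the root of its F value. At these depths 1 count was worth between 0.0298 and 0.0532 CPM. Alternatives were DESeq2 1.42.0, limma-voom (limma 3.58.1), other size factors, other filters, a replicate block, a fit with the trend of fold change on exonic length removed, and each library left out. The text names all 10 members, POLR2A, and up to 4 genes with the smallest p of each other list, to which genes called in small counts were added by name after their values were seen. A few genes within this rule are left out of the text. Members and lists were chosen with earlier results of these data known. A chi-square statistic between the counts of replicates was 4.56 per degree of freedom for T4A and 5.66 for WT, so they were not copies of one library, and whether they came from separate cultures is not settled by it.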

Additional observations from a re-analysis of the deposited data

How the results depend on the processing

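With 2 libraries per group, the 95% intervals of CTDP1, RPRD1B, RPRD2 and SCAF4 held changes in both directions. Of the 10 genes, 2 were called higher with DESeq2 size factors, with upper quartile factors and with a minimum mean of 1 CPM, and between 1 and 2 when 1 library was left out. With the length trend removed, 1426 of all genes and 1 of the 10 were called lower. RPRD2 changed sign with library totals (−0.066), with no filter (−0.016) and when 1 library was left out (−0.093 to 0.13). SCAF4 did so with library totals (−0.041) and when 1 library was left out (−0.27 to 0.30), CTDP1 when 1 library was left out (−0.34 to 0.80), and GPN3 with the length trend removed (−0.012). The cause of these differences between alternatives was not tested, and removing the length trend is no test of it. Genes called higher made up 45.1% of all calls, against 61.0% with upper quartile factors, which shift the median log2 fold change by 0.084, 31.2% with library totals, which shift it by −0.077, and 55.7% with the length trend removed. DESeq2 called 3298 genes and the reported test 4286. The reported test did not pair samples by replicate number. The deviations of same-numbered libraries had a correlation across genes of −0.0038. That value cannot exclude a pairing that touched only some genes. A replicate block gave 2012 genes higher and 2432 lower, with 1 and 3 of the 10, and changed none of the calls of the 10.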
